A study of Populus tremula with 16 samples.

Results

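Leaves of European aspen (Populus tremula) collected on 9, 11, 13 and 15 September 2011 were compared with leaves collected in summer, on 27 July and on 5, 19 and 31 August 2011. These 8 libraries, 4 on each side, were defined by collection date out of 16 RNA sequencing libraries that follow the leaf through autumn senescence. The comparison was chosen with earlier results of these data known. Each date has 1 library of total leaf RNA, and the labels give no treatment, genotype or batch. Neither the number of trees nor any pooling of leaves is stated in them. Dates stood in for replicates, so p-values measure the scatter of single dates, which holds day to day change as well as technical error.

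Autumn senescence is the ordered dismantling of the leaf before it is shed. Chloroplasts are taken apart, chlorophyll is broken down, and nitrogen and other nutrients are exported to the stem, while the cell stays alive and goes on transcribing genes for breakdown and transport. In aspen the visible loss of chlorophyll comes in autumn after growth has stopped. By collection date, leaves of 9 to 15 September lie between the summer leaves and the late dates of the series. No measure of chlorophyll or leaf colour was used here.

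The files give each gene feature as an ID that begins with Potri and do not pair the IDs with gene names, so what single IDs encode is not stated here. For the same reason the labelled tissue could not be checked against leaf marker genes. The summer libraries held 5148979 to 6729131 counts, and those of 9, 11, 13 and 15 September held 4477500, 719419, 2449021 and 836643. Every September library was shallower than every summer library, and 11 and 15 September were the shallowest. Where an ID had 0 counts, as many as 3 remain possible, a floor of 0.563 to 0.753 CPM in the summer libraries and of 0.548, 3.33, 0.912 and 2.92 CPM on the September dates in order. CPM are counts relative to a common library size, with the libraries scaled to each other by TMM, the trimmed mean of M values.

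By mid-September a sizeable part of the measured leaf transcriptome had shifted, in both directions in nearly equal number. Of 13554 tested IDs, 2196 differed between mid-September and summer leaves (16.2%), by edgeR's quasi-likelihood test at a Benjamini-Hochberg adjusted p of 0.05. Higher levels in mid-September were called for 1094 IDs (8.07% of those tested) and lower levels for 1102 (8.13%). The median change was 1.33 log2 units among the higher IDs, with quartiles of 1 and 1.87, and -1.29 among the lower ones, with quartiles of -1.66 and -1.01. The median level of the higher IDs went from 4.94 CPM in summer to 13.4 CPM in mid-September, and that of the lower IDs went from 15.6 to 6.3 CPM. In leaf tissue as a whole, fewer cells of a type and less RNA per cell cannot be told apart. The directions are relative to the TMM reference. With library totals alone, 94.5% of 6721 called IDs were higher, and the tested IDs as a whole had a median log2 change of 0.69 instead of -0.01.

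**Figure D1:**
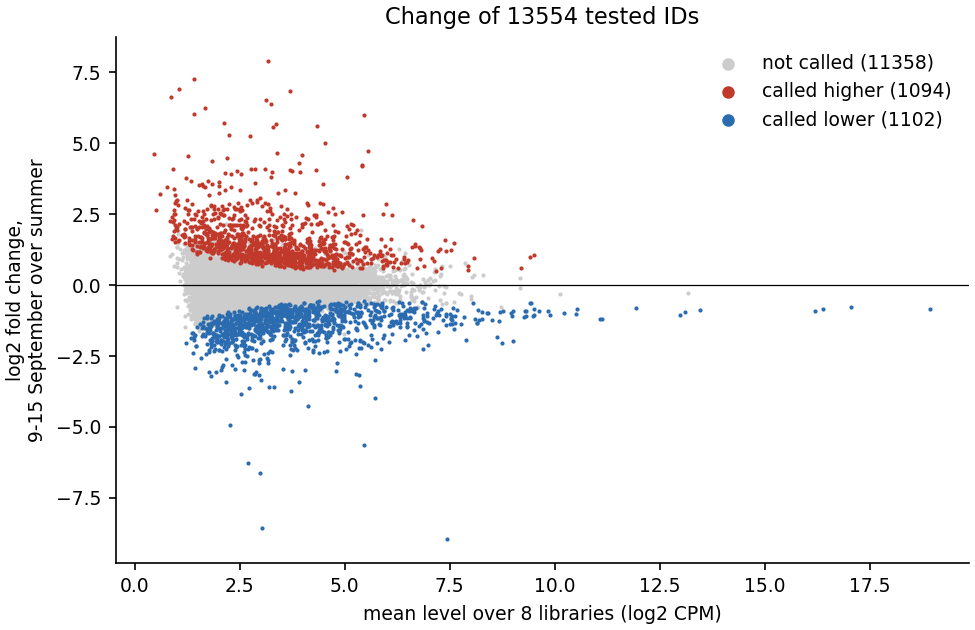
Each point is 1 of the 13554 tested IDs, with its mean level over the 8 libraries (log2 CPM) on the horizontal axis and its fitted log2 fold change, 9 to 15 September over summer, on the vertical axis. The 1094 higher IDs (red) and the 1102 lower IDs (blue) surround a band of IDs that were not called, which widens toward low levels.

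Most changes were moderate. Past 2-fold lay 821 of the higher and 836 of the lower IDs, and past 4-fold lay 245 and 139. Past 8-fold lay 68 of the higher and 30 of the lower IDs. The excess of large rises was not kept in every setting. With no filter on low counts 213 rose and 222 fell past 8-fold, and with at least 10 counts in every library of 1 group 24 rose and 31 fell. Without 9 and 13 September 59 rose and 62 fell over the same tested IDs. Without 31 August these counts were 145 and 50, and without 9 or 13 September the falls past 8-fold numbered 49 or 48.

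The calls were not spread evenly over expression levels. Tested IDs were divided into 4 equal classes by mean level. In the lowest class, with a median of 3.42 CPM, 10.2% were called, 228 higher and 118 lower. In the highest class, with a median of 22.2 CPM, 25.8% were called, 370 higher and 506 lower. The filter on low counts used library totals before TMM scaling, so low IDs that were higher in mid-September passed it more easily. With a filter on TMM-scaled library sizes, 992 IDs were called higher and 1145 lower. With at least 10 counts in every library of 1 group these numbers were 888 and 1075. The split by class was not repeated with these filters, and the part of the filter in it was not tested. The median standard error (SE) of the log2 change was 0.40 in the lowest class and 0.22 in the highest. The smallest change called was 0.94 log2 units in the lowest class and 0.49 in the highest, so smaller changes of low IDs were not detectable at this depth.

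For most of the called IDs the 4 libraries of mid-September lay wholly to 1 side of the 4 summer libraries. The groups did not overlap for 2646 tested IDs (19.5%), 1323 in each direction (9.76%). Among the called IDs this held for 882 of the higher (80.6%) and 946 of the lower ones (85.8%). The calls rest on the same 8 libraries, so high shares without overlap follow largely from the call itself. The remaining calls had a summer and a September library whose ranges touched or crossed.

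A principal component analysis of the 500 IDs of highest variance put the groups well apart on its first component (65.4% of the variance). Summer libraries lay at -31.01 on 27 July, -26.02 on 5 August, -27.04 on 19 August and -15.56 on 31 August. Those of 9, 11, 13 and 15 September were found at 21.37, 26.02, 20.16 and 32.08. The last summer date was thus the nearest to September, and the last September date the farthest from summer. The second component, with 12.6% of the variance, set the shallow libraries of 11 and 15 September (12.14 and 15.58) apart from the deeper ones of 9 and 13 September (-13.29 and -17.29). The part of depth in that split was not tested.

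The naming rule took only called IDs with at least 10 counts in all 4 libraries of the higher group and no overlap between the groups. The separation of the 4 IDs described next was thus set by that choice. Among the IDs that met the rule, the 2 largest rises began from almost nothing. Potri.005G048400 had 0, 0, 1 and 0 counts on the summer dates in order, and 97, 23, 49 and 33 counts on 9, 11, 13 and 15 September. In scaled levels its September libraries stood at 17.7, 25.6, 14.9 and 32.2 CPM, and its single summer count on 19 August was 0.215 CPM. No summer library came near any September library. The mean was 0.0538 ± 0.108 CPM in summer and 22.6 ± 7.83 CPM in mid-September (SD, n = 4 each). By summed counts, 202 against 1, mid-September leaves had 352 times the summer level after scaling, with a 95% exact binomial interval of 62.4 to 13950, which reflects counting error alone. The fitted rise was 7.92 log2 units (SE 0.54, edgeR adjusted p = 1.92e-06), and without the single summer count of 19 August it was 9.19.

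Potri.008G101000 had 0 counts on 27 July and on 5 August, 1 on 19 August and 3 on 31 August. It then had 214, 21, 55 and 36 counts on the September dates, which are 39.1, 23.3, 16.7 and 35.1 CPM. All September libraries lay above all summer libraries, of which 31 August was the highest at 0.753 CPM. Its mean was 0.242 ± 0.355 CPM in summer and 28.6 ± 10.3 CPM in mid-September (SD, n = 4 each). The ratio of summed counts, 326 against 4, was 142 after scaling (exact interval 54.9 to 524). The fitted rise was 6.85 log2 units (SE 0.53, edgeR adjusted p = 5.04e-06). Without 31 August, which holds 3 of its 4 summer counts, it was 8.08, and with every library thinned to the shallowest it was 5.57.

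The largest falls among the IDs that met the rule went nearly or wholly to 0 counts. Potri.001G348900 had 2548, 1713, 1737 and 445 counts on the summer dates and 5, 1, 0 and 1 counts on the September dates. Its levels were 548, 321, 374 and 112 CPM in summer, against 0.913, 1.11, 0 and 0.975 CPM in September. The fall was already visible between 19 and 31 August, and the September values of 11, 13 and 15 September lie below the floors of those libraries. Summed counts of 6443 against 7 gave a summer level 529 times that of mid-September (exact interval 257 to 1316). The fitted change was -8.95 log2 units (SE 0.62, edgeR adjusted p = 1.93e-06). It was -9.61 without 9 September, which holds 5 of its 7 mid-September counts, and -6.70 with 2 and 5 September added.

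Potri.010G196700 had 78, 53, 88 and 25 counts on the summer dates and 0 counts in each of the 4 September libraries. Its summer levels were 16.8, 9.94, 18.9 and 6.28 CPM, with a mean of 13 ± 5.89 CPM (SD, n = 4), lowest on 31 August. Against a floor of 3 counts over the whole mid-September group, summer leaves had at least 46.7-fold more. The test gave an adjusted p of 0.000183 by edgeR. All 4 of these IDs were called in the same direction in each fit that left out 1 library.

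**Figure D2:**
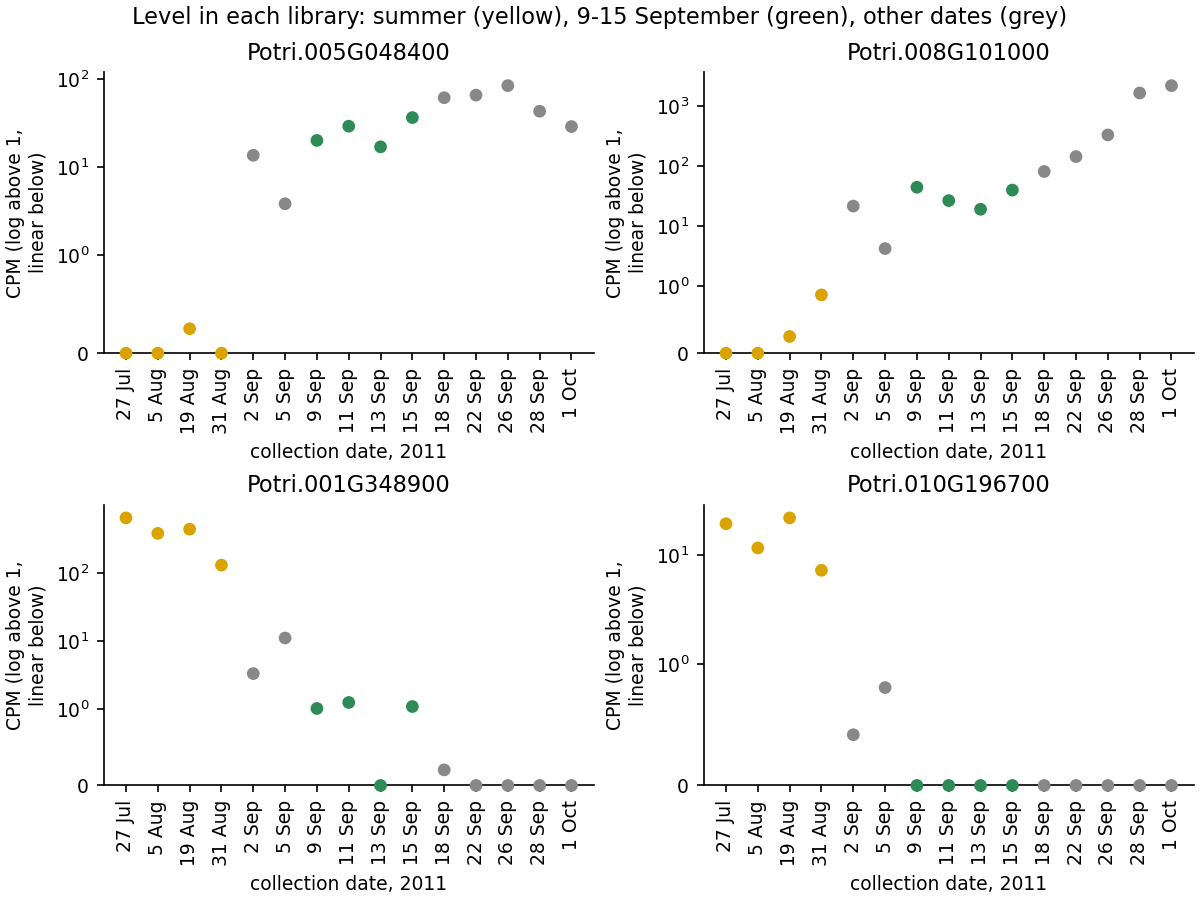
Level of the 4 named IDs in each of 15 libraries by collection date, in CPM on an axis that is linear below 1 and logarithmic above. The IDs were chosen for having no overlap between summer libraries (yellow) and those of 9 to 15 September (green), and the 2 falling IDs are already low on 2 and 5 September (grey).

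The dates outside the comparison show when these levels moved. On a scale common to 15 libraries, Potri.005G048400 stood at 13.6 and 3.84 CPM on 2 and 5 September, and it peaked at 84 CPM on 26 September before 28.8 CPM on 1 October. Potri.008G101000 stood at 21.6 and 4.24 CPM on 2 and 5 September, and it climbed on to 328 CPM on 26 September and 2163 CPM on 1 October. So the first passed a maximum inside the series, and the second was still climbing at its end. Potri.001G348900 stood at 3.35 and 11.1 CPM on 2 and 5 September, and Potri.010G196700 at 0.419 and 0.808 CPM, from 2 and 4 counts. In all 4 IDs the library labelled 5 September lay nearer to summer than the library labelled 2 September. Whether these 2 labels were exchanged was not tested, and the dates are used as labelled.

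The medians of the called IDs had the same order of 2 and 5 September as labelled. Set against each ID's summer mean, the 1094 higher IDs had a median of -0.12, -0.07, -0.01 and 0.23 log2 units on 27 July and on 5, 19 and 31 August. Their median was 0.94 on 2 September and 0.64 on 5 September, then 1.21, 1.18, 1.19 and 1.26 on 9, 11, 13 and 15 September. From 9 to 15 September it thus varied little. IDs whose levels scatter among these dates are called less often, so the choice of IDs favours such flatness. From 18 September onward the 5 later dates had medians of 1.71, 1.73, 2.10, 2.20 and 2.21. Values on every date share the 4 summer libraries as their base, and the IDs were chosen by their difference on the dates of the comparison.

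The 1102 lower IDs had medians of 0.20, -0.04, 0.04 and -0.18 log2 units on the summer dates. They stood at -0.94 on 2 September and -0.55 on 5 September, then at -1.14, -1.20, -1.21 and -1.34 from 9 to 15 September. The lower IDs continued down afterwards, to -1.91 on 18 September, -2.51 on 26 September and -3.42 on 1 October. Over all tested IDs the median stayed between -0.04 and 0.01 up to 26 September, but it was -0.25 on 28 September and -0.38 on 1 October, so the values of the last dates are to be read against that shift.

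**Figure D3:**
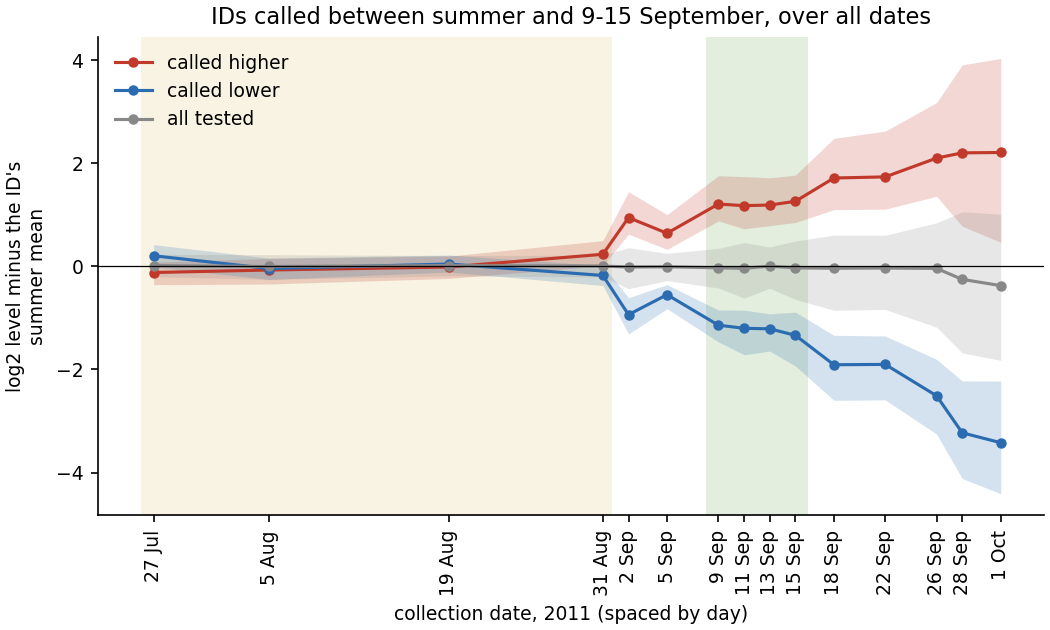
Median (line and points) and quartiles (bands) of the log2 level minus the ID's own summer mean, on 15 collection dates of 2011 spaced by day, for the 1094 higher IDs (red), the 1102 lower IDs (blue) and all 13554 tested IDs (grey). Summer dates are shaded yellow and 9 to 15 September green. Across the green span, whose dates entered the calls, the medians lie at 1.18 to 1.26 (higher IDs) and -1.34 to -1.14 (lower IDs).

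The last summer leaf stood out among the summer leaves in the called IDs. On 31 August, 51.1% of the higher IDs had their highest summer level, where over all tested IDs that date held the highest level for 24.9%. It also held the lowest summer level for 41.4% of the lower IDs, against 23.7% of all tested IDs. At the other end, 27 July held the highest summer level for 48.9% of the lower IDs, against 25.9% of all tested IDs. These are descriptions of libraries that entered the comparison, with no test. Within mid-September the last date had the same lean, but weaker. On 15 September lay the highest level for 34.3% of the higher IDs, against 29.4% of all tested IDs. The lowest level lay there for 38.7% of the lower IDs, against 30.8% of all. The first date, 9 September, leaned for the lower IDs only. It held the highest level for 31.8% of them, against 19.1% of all, and the lowest for 16.4% of the higher IDs, against 17% of all.

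A few very abundant IDs gave up part of their share of the counts. The 10 most abundant IDs held 83.7%, 83.4%, 83.9% and 84.1% of all counts on the summer dates in order, and 76.1%, 77.1%, 74.9% and 76.7% on 9, 11, 13 and 15 September. The groups did not overlap, with 83.8 ± 0.29% against 76.2 ± 0.95% (SD, n = 4 each). A two-sided exact permutation test gave p = 0.0286 (adjusted 0.0286 over 2 tests), the smallest that 70 divisions of 8 libraries allow. Both tests take the dates as exchangeable, which dates in order of time are not. A shift between the groups and a steady drift over the dates cannot be told apart by this p. Among these 10 IDs, 9 were called lower, where 8.13% of all tested IDs and 506 of the 3389 in the highest class by mean level were, with log2 changes from -1.21 to -0.27 over the 10 and a median of -0.86. With library totals alone, 5 were called lower and 1 higher, with a median of -0.16.

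The rest of the transcriptome was spread over more IDs. After the 10 most abundant IDs were set aside and every library was thinned to 164929 counts, 1232, 1112, 1192 and 1195 IDs held 50% of these counts on the summer dates. The number was 1461, 1730, 1651 and 1533 on the September dates. Every September library lay above every summer one, at 1594 ± 120 against 1183 ± 50.6 IDs (SD, n = 4 each; exact permutation p = 0.0286, two-sided, adjusted 0.0286 over the same 2 tests).

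Called IDs often lay beside another ID called in the same direction. Neighbours here are IDs whose numbers follow each other directly and which were both tested, as 8380 IDs were. Of 751 lower IDs with such a neighbour, 165 (22%) stood beside another lower ID, where 10.9% of all IDs with a neighbour did. Of 663 higher IDs, 108 (16.3%) stood beside another higher ID, where 9.76% of all did. With library totals alone 55.8% of the higher IDs did, against 52.8% of all, and 14.4% of the lower IDs, against 3.78%. Without 9 and 13 September 5.47% of the higher IDs did, against 3.25% of all, and with every library thinned to the shallowest 56.7% of the lower IDs did, against 19.6%. Runs of at least 3 IDs called the same way numbered 15 for lower and 4 for higher IDs, and the longest held 8 lower IDs. Neighbours can share reads where they are near-identical copies, and the part of that was not tested. The difference between the directions was not tested.

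Of the 15 lower runs, 7 lay in 1 stretch of 63 successive numbers under the prefix 013G, which was picked out after its values were seen. It held 45 tested IDs, of which 39 were called lower and 0 higher (background 8.13% lower and 8.07% higher). Runs of lower calls set its borders, so a high share called lower follows largely from how it was drawn. Its median log2 change was -1.14, with a range from -2.04 to -0.28, and with library totals alone the median was -0.44 and 17 IDs were called lower. The stretch held 72.6%, 72.2%, 72.9% and 73.3% of all counts on the summer dates and 66.8%, 67.1%, 65.4% and 66.3% on the September dates, and 4 of the 10 most abundant IDs belong to it. Without the stretch, 18.4% of the lower IDs stood beside another lower one, where 10.5% of all did.

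The other prefixes held a narrower range of called shares. Under 013G, 16% of 595 tested IDs were called lower, and 10.2% of the 550 outside the stretch. Under the other numbered prefixes the share called lower ran from 5.5% for 017G to 10.4% for 011G, and under T it was 12.4% of 209. The share called higher ran from 5.96% for 017G to 10.5% for T. The rises were thus spread over all the prefixes.

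**Figure D4:**
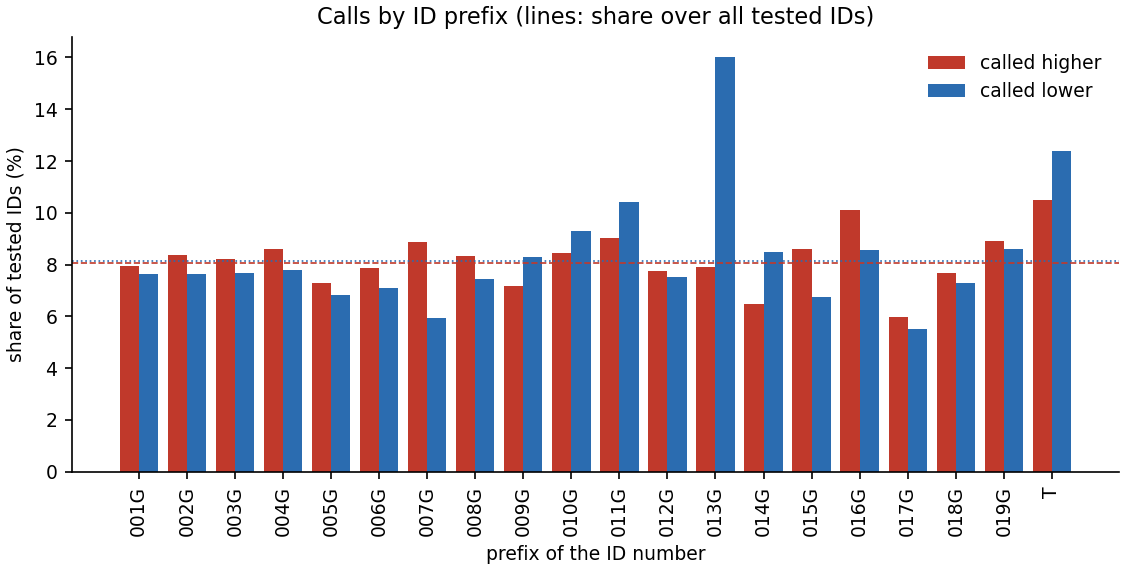
Share of tested IDs called higher (red bars) or lower (blue bars) in mid-September, in percent, by the prefix of the ID number. The lines mark the shares over all tested IDs, 8.07% higher (dashed) and 8.13% lower (dotted), and the lower bar of 013G stands at 16%.

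Near Potri.005G048400, within 10 numbers on either side, 4 of the 8 other tested IDs were called higher too, by 1.26 to 6.93 log2 units. In the same window around Potri.008G101000, 1 of 11 other tested IDs was called higher, by 0.73 log2 units, and 1 was called lower, a share near the 8.07% called higher over all tested IDs. Around Potri.001G348900, 0 of 12 were called lower and 1 was called higher, and around Potri.010G196700 1 of 4 was called lower, with a change of -6.61 log2 units, where 8.13% of all tested IDs were called lower. These windows were looked at after the values were seen.

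Which dates carried the comparison was examined by leaving them out. With the shallow libraries of 11 and 15 September left out together, 1778 IDs were called, 943 higher and 835 lower, among 15374 tested. Over the IDs tested with all 8 libraries, 1553 were called, and these held 1455 of the 2196 calls (66.3%). With the deeper libraries of 9 and 13 September left out instead, 792 IDs were called among 15142 tested, and over the same IDs 818 were called, which held 730 of the 2196 (33.2%). Both fits called 594 of the 2196 IDs, 264 higher and 330 lower. No called ID had its fitted direction turned without the shallow libraries, and 7 had it turned, none of them past the threshold, without the deeper ones.

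Leaving out 1 of the 8 in turn gave 1501 calls without 9 September, the fewest, and 2445 without 5 August, the most. Without 9 September 719 IDs were called higher, against 1094. In all 8 such fits 1158 IDs kept their call (52.7%), 552 higher and 606 lower, and 0 turned their fitted direction. With 2 and 5 September added to the mid-September side, 2229 IDs were called, and 1853 of the 2196 remained called.

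**Figure D5:**
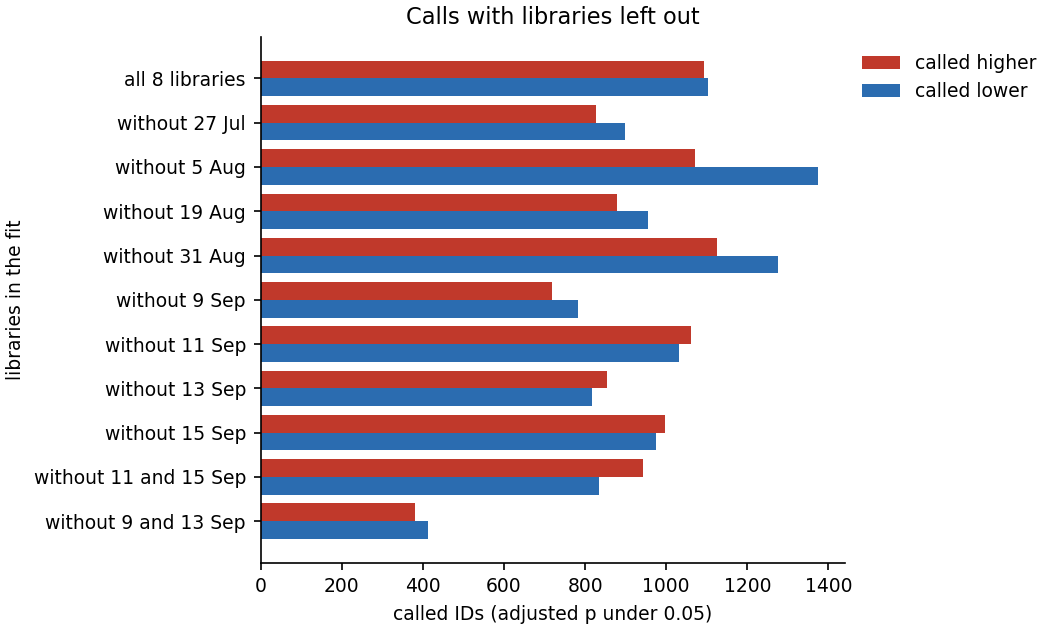
Number of IDs called higher (red) and lower (blue) at an adjusted p under 0.05, with all 8 libraries and with libraries left out. The bars are shortest without 9 and 13 September, at 380 and 412 IDs, and stay at 943 and 835 without the shallow libraries of 11 and 15 September.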

How the data were processed

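The authors deposited raw read counts per ID for 41335 IDs, and the single library tables held the same counts in all 16 libraries. The tools named, per the submitters' processing notes, are STAR 2.4, HTSeq, Trimmomatic 1.0, FastQC 1.0 and CASAVA 1.8.2, with no order. The sources used here do not state genome build, annotation, strand setting or handling of reads with several matches. Per the labels' protocols, libraries were made with the TruSeq RNA kit. All rows named an ID. Among the 8 libraries, scatter in 28 pairs was at least 1.82 times binomial sampling, so none was a copy. On 19 September no ID had more counts than on 18 September, so 19 September was left out of values by date.

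The 8 libraries were fitted alone in edgeR 4.0.16 (R 4.3.3; filterByExpr by group with minimum count 10 and minimum total 15, TMM, glmQLFit, glmQLFTest), with SE taken as the log2 change over the root of F. Log2 CPM used a prior count of 2. The code was tested on simulated data. Alternatives used other scalings and filters, DESeq2 1.42.0, limma-voom (limma 3.58.1), thinning and left-out libraries. Named were the 2 largest rises and falls among 494 higher and 943 lower called IDs that had at least 10 counts in all 4 libraries of the higher group and no overlap. The comparison and the lists were chosen with earlier results of these data known. The planned gene lists and promoter motifs were not used, since the files do not pair IDs with names. Intervals and floors cover counting error only.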

Additional observations from a re-analysis of the deposited data

Results flagged for a closer look

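Of 12 groups of 4 libraries checked, 1 held a library far from the others. Potri.005G048400 stood at 0.215 CPM on 19 August, where the other 3 summer libraries were at 0 CPM. This is a single count, below the floor of 0.646 CPM of that library. The gap was the whole range of the group, where the limit for a flag was 0.829 of the range. About 1 in 20 groups passes that limit by chance, if the values are normally distributed, which counts close to 0 are not.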

How the results depend on the processing

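The 4 named IDs kept their direction and their call wherever they were tested. Potri.010G196700 was not tested with libraries thinned to 719419 counts. The 10 most abundant IDs' share changed by -7.59 percentage points, and the number of IDs that held 50% of the counts by 411. The first stayed past the threshold with the 10 highest IDs of each library, and the second with another random thinning. Leaving out 1 library could not change the direction or the p-value of either, because the groups did not overlap. Without 1 library in turn the first ran from -7.89 to -7.16 and the second from 365.6 to 455.2.

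The counts of called IDs were less stable. With library totals alone, 6721 were called, 6348 higher and 373 lower, with 3730 and 224 past 2-fold and 167 and 10 past 8-fold. With no filter on low counts, 3300 were called, 1839 lower, with 1477 falls past 2-fold and 213 rises and 222 falls past 8-fold. With at least 10 counts in every library of 1 group, 527 rose past 2-fold and 24 past 8-fold. DESeq2 gave 134 rises and 99 falls past 8-fold, and 1 fit of 15 libraries gave 158 and 69. With 2 and 5 September added, 8 fell past 8-fold. Without 11 and 15 September 127 rose and 60 fell past 8-fold. Without 9 and 13 September, added after the data were seen, 792 were called, 380 higher and 412 lower, 368 and 388 past 2-fold, and 65 falls past 8-fold. Over the IDs of the 8 library fit these were 818, 401, 417, 385, 393 and 62, with 59 rises past 8-fold. Thinned to the shallowest library, 3409 IDs were tested and 727 called, 327 higher and 400 lower, with 268 and 292 past 2-fold and 20 and 4 past 8-fold. Fewer counts and fewer tested IDs belong to that setting by construction. For the rest the cause was not tested.

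Without 1 library in turn, calls ranged from 1501 to 2445, higher ones from 719 to 1125 and lower ones from 782 to 1373. Rises past 2-fold ranged from 636 to 947, falls from 683 to 1086, rises past 8-fold from 78 to 145 and falls from 23 to 50. The share of higher IDs was 49.8%, and 43.6% with the upper quartile. A filter on TMM-scaled library sizes, added after the data were seen, gave 46.4%. No paired analysis was possible because the labels give each date 1 library and no replicate number. Depth in 11 and 15 September limits calls of low IDs.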

Other observations

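Rank correlations of log2 CPM across the tested IDs, which are not independent replicates, were 0.841 to 0.928 in the 6 pairs of summer libraries and 0.772 to 0.915 in the 6 pairs of mid-September libraries. In the 16 pairs between the groups they were 0.664 to 0.838. The pairs share an annotation and differ in depth, and lower depth lowers such values.

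Opposite calls on neighbouring numbers were below the share of all IDs beside such a call. Of 663 higher IDs with a tested neighbour, 50 (7.54%) stood beside a lower ID, and of 751 lower IDs, 49 (6.52%) stood beside a higher one. No test was made of these shares.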
